A study of Homo sapiens with 9 samples.

Results

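The RAB GTPase genes of LX-2 cells, a human hepatic stellate cell line, were taken from the gene table as the rows named RAB followed by a number and at most 1 further letter or letter and digit. The rule found 62 of 17123 genes, and it used names only, not measured values. RAB proteins are small GTPases that mark the membranes of a cell: each is loaded with GTP by an exchange factor (GEF) on its own compartment, recruits effectors such as tethers and motors, and is switched off by a GTPase-activating protein (GAP). A lipid tail, attached to cysteines at the end of the protein by Rab geranylgeranyl transferase, holds the active form on the membrane, and GDI proteins keep the inactive form in the cytosol. Collagen and the enzymes that crosslink it, among them the lysyl oxidases LOX and LOXL1, leave a cell through the secretory route that part of this family serves.

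There were 3 groups of 3 libraries, all from LX-2 cells treated with TGFβ1 at 10 ng/ml, so no group without TGFβ1 enters these comparisons. The controls received a negative control siRNA, and the other groups an siRNA that targets LOX or LOXL1, at 25 nM for 48 h. No dose is stated for the control siRNA. Whether the 3 replicates were cultured separately is not stated, so each p-value reflects library-to-library spread, which may be technical. Control replicate 3 was placed by its title, since its treatment label names the negative control without calling it an siRNA.

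The deposited values are FPKM (fragments per kilobase of transcript, scaled to the mapped fragments of the library), so the depth behind each value is unknown; 11663 to 11728 genes reached 1 FPKM per library. LOX was measured at 47.69, 42.79 and 48.05 FPKM in the controls, at 28.87, 30.83 and 25.55 with LOX siRNA and at 51.91, 49.50 and 51.91 with LOXL1 siRNA, and fell with its own siRNA by 0.68 on the log2(FPKM + 1) scale (limma, adjusted p = 0.000673). LOXL1 was measured at 12.17, 13.50 and 11.29 FPKM in the controls, at 12.52, 10.64 and 11.91 with LOX siRNA and at 5.66, 7.26 and 7.49 with LOXL1 siRNA. It fell with its own siRNA by 0.78 (limma, adjusted p = 0.00432; 0.0632 when no filter on low values was set). Of 12 stellate or myofibroblast markers, VIM at 1440 to 1535 FPKM, TAGLN at 544 to 675 and COL1A1 at 209 to 258 were the highest, and DES, LRAT, RGS5, DCN and LUM were under 1 FPKM in every library. The 4 hepatocyte markers and the 4 endothelial markers in the table stayed under 1 FPKM in every library. Of the macrophage or leukocyte markers CD68, which many other cells express, stood at 38.2 to 45.0 FPKM. LYZ stood at 2.45 to 3.47 FPKM, CD14 at 1.31 to 2.45, PTPRC at 0.70 to 1.28 and CD163 at 0.04 or less. Of the cholangiocyte markers SOX9 stood at 10.7 to 13.4 FPKM, KRT7 at 2.43 to 4.09, KRT19 at 0.23 or less and EPCAM at 0.10 or less.

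All 62 RAB genes could be given a coding end from the GENCODE v29 annotation of GRCh38, using for each gene the transcript with the longest coding span. The last 30 coding bases are shown for 9 genes because they carry the codons of the cysteines to which the lipid is attached, and because they show the forms that these endings take. A cysteine codon (TGT or TGC) stood among the last 5 codons in 60 of 62 genes. Capitals mark every cysteine codon in frame, and each sequence is written in the direction of the gene.
RAB1A, chr2:65088496-65088525, minus strand: ccagtcaagcagtcaggtggaggtTGCTGC
RAB1B, chr11:66276206-66276235, plus strand: cctgtaaagccggctggcggtggcTGTTGC
RAB5A, chr3:19983791-19983820, plus strand: caaccaaccaggaatcagTGTTGTagtaac
RAB5B, chr12:55992180-55992209, plus strand: cagcagaacaagagccagTGTTGTagcaac
RAB6A, chr11:73677901-73677930, minus strand: caaccagtcagtgaaggaggcTGTtccTGC
RAB6C, chr2:129980848-129980877, plus strand: aattcatcattgctgcctgtctcgtggagg
RAB7A, chr3:128813390-128813419, plus strand: gccaaggcctcggcagaaagcTGCagtTGC
RAB8A, chr19:16132272-16132301, plus strand: aggagcagctttttccgaTGTgttcttctg
RAB40C, chr16:627590-627619, plus strand: aacTGCtcgcggagtaacTGCaagatctcc

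These endings fell into a few classes. In 15 genes, RAB1A and RAB1B among them, the last pair of codons both encoded cysteine. In 20 genes, such as RAB6A and RAB7A, the last codon and the third from the end encoded cysteine, and in 22, such as RAB5A, RAB5B, RAB8A and RAB40C, the fourth codon from the end encoded cysteine. In RAB20 and RAB44 the codons before the last one, the second and the third from the end, encoded cysteine, and in RAB41 the last codon alone. None was found in the last 5 codons of RAB6C, a retrogene copy of RAB6A, or of the longest coding transcript of RAB34. RAB6C was at or near 0 FPKM in every library and RAB34 at 111 to 120.

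The summed level of the RAB genes was close between the groups. Their FPKM, which is per length and so can be compared between genes, summed to 1655 ± 28.96 in the controls, 1660 ± 5.73 with LOX siRNA and 1664 ± 23.0 with LOXL1 siRNA (mean ± SD, n = 3 libraries each). The 3 groups overlapped. Over the 9 libraries 5 genes averaged 100 FPKM or more, 17 at least 30, 32 at least 10 and 50 at least 1. The 5 highest held 45.0% of the summed FPKM. The median tested RAB gene stood at 15.3 FPKM, against 12.7 for all genes tested.

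**Figure D1:**
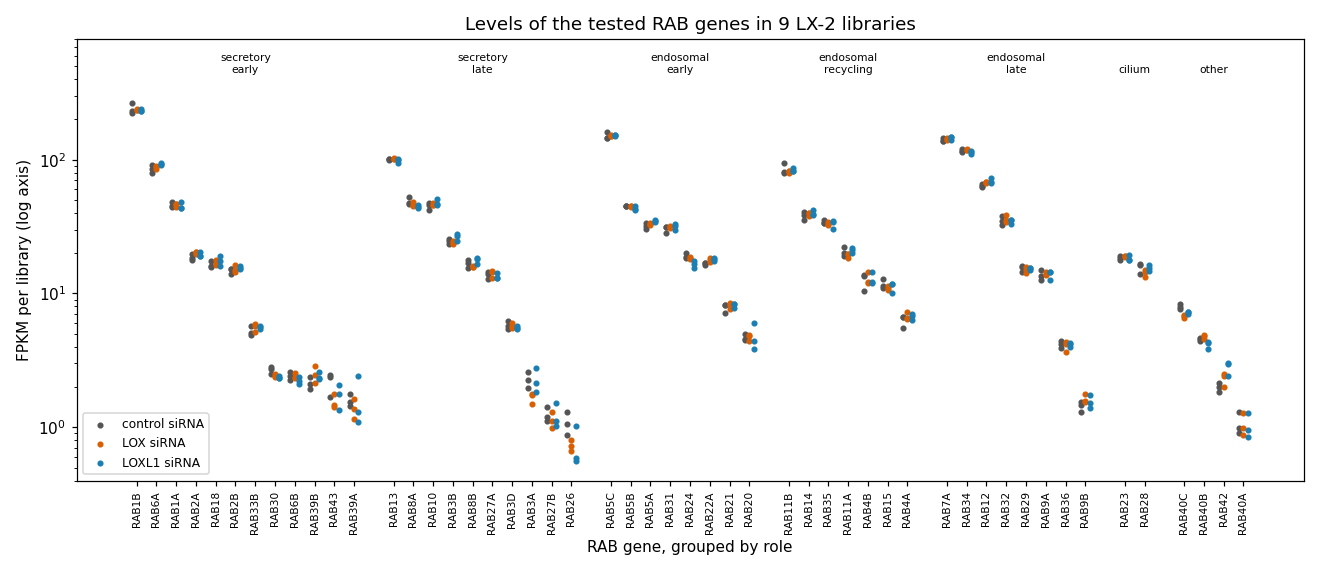
FPKM of the 51 tested RAB genes (logarithmic vertical axis), ordered by level within 7 role classes; each point is 1 of 9 libraries, coloured by siRNA group. Levels run from RAB1B at 224 to 265 FPKM down to RAB26 at 0.56 to 1.29, and within a gene the 3 groups lie close together.

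RAB1B, which with RAB1A drives transport from the endoplasmic reticulum to the Golgi, was the highest at 224, 265 and 231 FPKM in the controls, 241, 234 and 234 with LOX siRNA and 232, 230 and 238 with LOXL1 siRNA. RAB5C, an early endosome fusion factor, followed at 146 to 160 FPKM over the 9 libraries, and RAB7A, which governs fusion of late endosomes with lysosomes, at 138 to 148. RAB1B lay above both in every library, and RAB5C above RAB7A in every library, although the ranges of the latter pair overlapped across libraries. RAB34, which positions lysosomes and takes part in building cilia, stood at 111 to 120 FPKM. RAB13, a regulator of delivery to the plasma membrane and cell junctions, stood at 93.7 to 102, below RAB34 in every library. RAB6A at 80.0 to 93.7 FPKM and RAB11B at 80.0 to 95.3 came next, and their ranges overlapped. Part of the sequence of some of these genes also occurs in other genes annotated by GENCODE v29. This held for 56.5% of the 50-base words of RAB5C, 56.3% of RAB13 and 34.8% of RAB1B. Among the genes below it held for 58.3% of RAB23 and 38.9% of RAB8A. Their levels may thus be uncertain, and how far shared words bear on the deposited values was not tested.

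The remaining 11 RAB genes were under 1 FPKM in every library and were not tested. They were RAB33A, RAB41, RAB19 and RAB6C of the early secretory class, RAB37 and RAB3C of the late secretory class, RAB17 and RAB25 of the recycling class, RAB38 and RAB7B of the late endosomal class, and RAB44. RAB17 and RAB25 are known from epithelia, RAB38 from pigment cells, RAB37 from mast cell granules and RAB3C from regulated exocytosis. Their highest library was RAB33A at 0.72 FPKM, and 5 of the 11 were listed at 0 in at least 5 libraries. The 51 others reached 1 FPKM in at least 3 libraries.

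Among the roles, the early secretory genes held 26.5% of the RAB FPKM, the late endosomal genes 23.9%, the early endosomal genes 18.6%, the late secretory genes 15.6% and the recycling genes 12.5%. The cilium genes RAB23 and RAB28 held 2.03% and the genes without a settled route 0.918%. The summed level of the early secretory class was 438 ± 17.0 FPKM in the controls, 439 ± 2.49 with LOX siRNA and 440 ± 9.53 with LOXL1 siRNA. That of the late endosomal class was 392 ± 3.32, 401 ± 4.28 and 398 ± 4.27 FPKM (SD, n = 3). For this class all 3 LOX siRNA libraries and all 3 LOXL1 siRNA libraries lay above all 3 controls. This was not a rise of all its genes. Of the 8 tested, 6 lay above control and 2 below with LOX siRNA, and 4 above and 4 below with LOXL1 siRNA. Their median log2 differences were 0.031 and 0.006. RAB12 of this class averaged 64.2 FPKM in the controls, 67.8 with LOX siRNA and 69.4 with LOXL1 siRNA. An exact permutation test of 3 against 3 libraries cannot go below 0.10, so the sums were not tested.

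No RAB gene passed an adjusted p of 0.05 (limma with Benjamini-Hochberg adjustment over 11808 genes) in any of the 3 comparisons. Of all genes tested, 0.00847% passed with LOX siRNA against control, 0.0762% with LOXL1 siRNA against control and 0.212% between the targeting siRNAs. The smallest adjusted p of a RAB gene was 0.503, 0.188 and 0.265 in these comparisons, and an F test over the 3 groups gave 0.2197 at the smallest, where 0.0847% of all genes passed; at an unadjusted p of 0.05 it found 8 RAB genes (15.7%), beside 11.5% of all genes. Limma without the trend and with the replicate number as a block also called no RAB gene. At an unadjusted p of 0.05, 5 of 51 RAB genes (9.80%) passed with LOX siRNA against control, beside 6.93% of all genes. Of these 1 was higher (1.96%, all genes 4.37%) and 4 were lower (7.84%, all genes 2.56%). With LOXL1 siRNA against control 9 (17.6%) passed, beside 10.2% of all genes, of which 5 were higher (9.80%, all genes 3.82%) and 4 lower (7.84%, all genes 6.41%). RAB26 is counted among the lower genes in both comparisons with control. It reached 1 FPKM in no LOX siRNA library, so its place in these counts depends on the filter. Between the siRNAs 6 (11.8%) passed, beside 12.8%, of which 2 were higher with LOX siRNA (3.92%, all genes 8.25%) and 4 lower (7.84%, all genes 4.56%). Groups that did not overlap were found for 6 RAB genes (11.8%, all genes 12.8%), 10 (19.6%, all genes 14.3%) and 11 (21.6%, all genes 21.5%). The comparisons with control share the 3 control libraries. The median log2 difference of the 51 RAB genes was 0.0097, -0.0087 and -0.0019, and of all genes 0.0035, -0.0058 and 0.011. The largest difference of any RAB gene was 0.35 on the log2 scale, and standard errors ran from 0.035 for RAB34 to 0.15 for RAB39A.

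**Figure D2:**
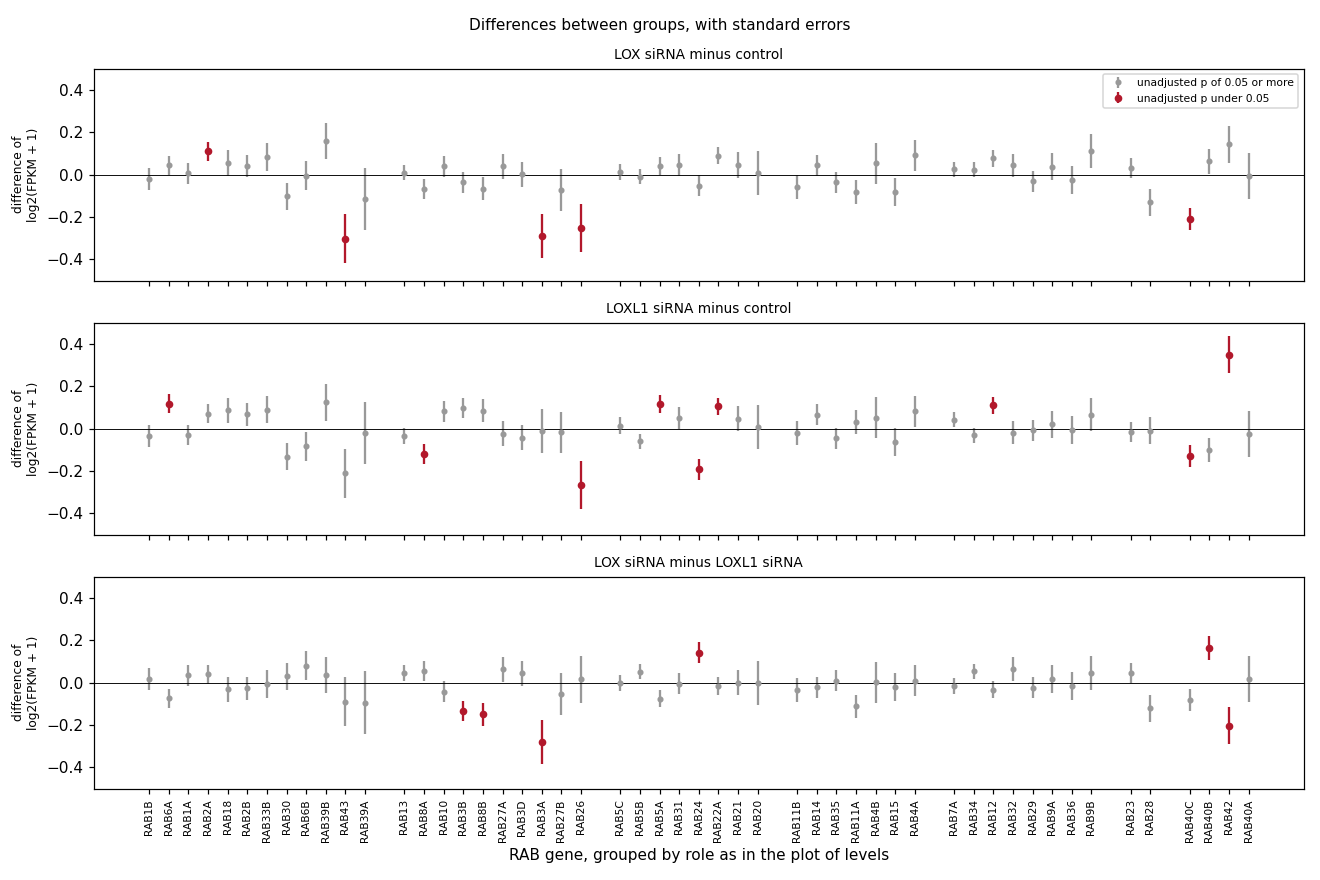
Difference of mean log2(FPKM + 1) between groups for the 51 tested RAB genes, 1 panel per comparison; bars are standard errors from limma and red marks an unadjusted p under 0.05, of which there are 5, 9 and 6. Most points lie within 0.1 of 0, and the genes farthest from 0 are low ones such as RAB42, RAB43 and RAB3A.

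Control replicate 2 stood apart from the other libraries with transcript GC content. Over all genes tested its deviation from the mean of the 9 libraries had a Spearman rho of 0.685 with GC, and over the 51 RAB genes 0.658, against 0.050 and -0.29 for control replicates 1 and 3. It was the highest library for 11 RAB genes and the lowest for 19. RAB1B (61.1% GC) and RAB11B (63.5% GC; 95.3 FPKM, against 80.0 and 80.4 in the other controls) were highest there, and RAB4A (39.3% GC; 5.52 FPKM, against 6.73 and 6.71) was lowest. Across the RAB genes the log2 difference from control also had a rho with GC, of -0.335 for LOX siRNA and -0.478 for LOXL1 siRNA, and of 0.080 between the targeting siRNAs. Over all genes tested other libraries had trends as well. The rho with GC was -0.298, -0.217 and -0.251 in the LOXL1 siRNA libraries. It was 0.157, -0.023 and 0.025 with LOX siRNA, and -0.28 in control replicate 3. With transcript length the rho was -0.285, -0.279 and -0.249 with LOX siRNA and 0.308, 0.197 and -0.049 with LOXL1 siRNA. In the controls it was 0.376, -0.166 and 0.138, so these trends follow the groups in part. All of these are descriptions over genes that share libraries, and the part of GC content or length in the differences was not tested. Without control replicate 2, the genes past an unadjusted p of 0.05 numbered 6, 7 and 9 in the 3 comparisons and none passed the adjusted threshold. Small differences from control changed sign without it: that of RAB1B went from -0.02 to 0.05 with LOX siRNA and from -0.04 to 0.04 with LOXL1 siRNA, and that of RAB11B from -0.06 to 0.02 and from -0.02 to 0.06. Leaving it out is also given below beside some of the named genes.

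**Figure D3:**
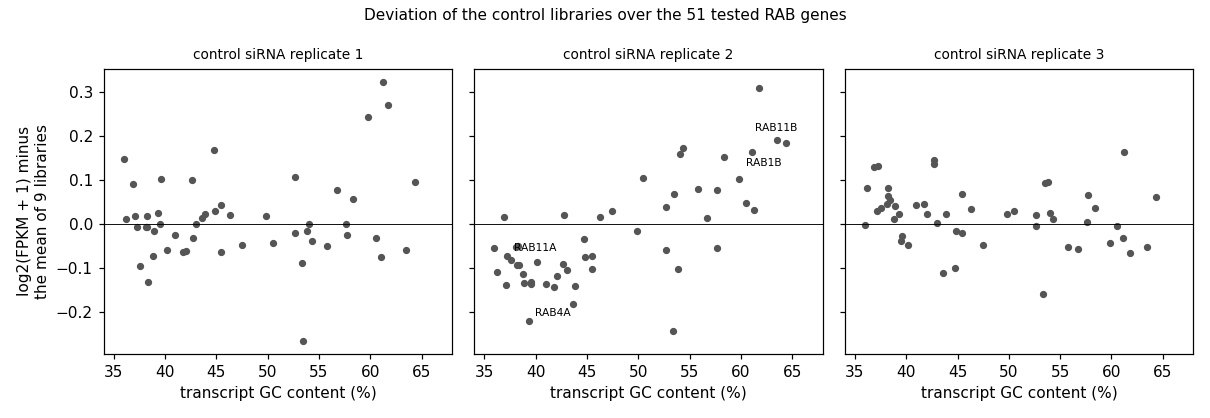
Deviation of log2(FPKM + 1) from the mean of the 9 libraries against transcript GC content (%), for the 51 tested RAB genes in each control library. In replicate 2 the deviation climbs with GC (Spearman rho 0.658), with RAB1B and RAB11B above 0 and RAB4A and RAB11A below; replicates 1 and 3 have a rho of 0.050 and -0.29.

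Of 12 early secretory genes tested, 1 was higher (all genes 4.37%) and 1 lower (all genes 2.56%) with LOX siRNA against control at an unadjusted p of 0.05, and 1 was higher with LOXL1 siRNA (all genes 3.82%). RAB2A, which serves retrieval from the Golgi to the endoplasmic reticulum, was measured at 18.42, 17.87 and 19.58 FPKM in the controls, 20.29, 19.77 and 20.40 with LOX siRNA and 19.22, 19.16 and 20.36 with LOXL1 siRNA. The LOX siRNA libraries lay above all controls and the LOXL1 siRNA libraries overlapped with both. The difference from control was 0.11 ± 0.045 (SE; limma, adjusted p = 0.704) with LOX siRNA and 0.07 ± 0.045 (adjusted p = 0.615) with LOXL1 siRNA; the first was 0.08 without control replicate 2.

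RAB6A, which carries traffic through and out of the Golgi, stood at 84.50, 80.01 and 91.29 FPKM in the controls, 85.77, 87.99 and 89.84 with LOX siRNA and 90.56, 93.22 and 93.70 with LOXL1 siRNA. Control replicate 3 reached into the LOXL1 siRNA group, and the LOX siRNA libraries all lay below the LOXL1 siRNA libraries. Against control the difference with LOXL1 siRNA was 0.12 ± 0.045 (limma, adjusted p = 0.392), and 0.07 without control replicate 2. Of the 50-base words of RAB6A transcripts, 30.5% also occur in transcripts of other genes, 15.3% in RAB6C.

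RAB43, a Golgi transport gene, was measured at 2.37, 2.46 and 1.67 FPKM in the controls, 1.42, 1.78 and 1.47 with LOX siRNA and 2.07, 1.35 and 1.78 with LOXL1 siRNA. Its groups overlapped, and the difference with LOX siRNA was -0.30 ± 0.12 (limma, adjusted p = 0.682). Its level is uncertain, because 94.1% of its 50-base words also occur in the read-through gene ISY1-RAB43, which stood at 10.5 to 12.2 FPKM over the 9 libraries and had a difference of 0.01 ± 0.052 in the same comparison. The high-level genes of the class, RAB1B and RAB1A, had differences of -0.02 ± 0.052 and 0.01 ± 0.048 with LOX siRNA and of -0.04 and -0.03 with LOXL1 siRNA. RAB18, known for its part at the endoplasmic reticulum and lipid droplets, had 0.05 ± 0.060 and 0.09 ± 0.060.

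Late secretory genes, which act between the Golgi and the plasma membrane or in regulated exocytosis, numbered 10 tested. At an unadjusted p of 0.05, 2 were lower than control with LOX siRNA (all genes 2.56%), and 2 with LOXL1 siRNA (all genes 6.41%). RAB26 is 1 of the 2 each time, and its test depends on the filter. Between the siRNAs 3 were lower with LOX siRNA (all genes 4.56%). RAB3A, known from synaptic vesicles, was measured at 2.60, 2.26 and 1.95 FPKM in the controls, 1.76, 1.5 and 1.74 with LOX siRNA and 1.85, 2.14 and 2.78 with LOXL1 siRNA. The 3 LOX siRNA libraries were below every other library, while the control and LOXL1 siRNA libraries overlapped. The difference was -0.29 ± 0.10 against control (limma, adjusted p = 0.659) and -0.28 ± 0.10 against LOXL1 siRNA (adjusted p = 0.292).

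RAB26, a secretory granule gene, stood at 1.29, 0.87 and 1.05 FPKM in the controls, 0.73, 0.66 and 0.81 with LOX siRNA and 0.56, 0.59 and 1.03 with LOXL1 siRNA. It entered the test through 2 control libraries and 1 LOXL1 siRNA library at or above 1 FPKM, and through no LOX siRNA library, so its difference (-0.25 ± 0.11; limma, adjusted p = 0.706) depends on that filter and supports nothing. RAB8A, which directs vesicles from the Golgi to the plasma membrane, was measured at 46.71, 52.28 and 47.54 FPKM in the controls, 48.67, 45.17 and 45.90 with LOX siRNA and 43.67, 44.65 and 46.16 with LOXL1 siRNA. All LOXL1 siRNA libraries lay below all controls (-0.12 ± 0.047; limma, adjusted p = 0.412), and the highest control was replicate 2, without which the difference was -0.07.

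Its paralogue RAB8B stood at 16.88, 15.46 and 17.79 FPKM in the controls, 15.85, 15.82 and 15.99 with LOX siRNA and 18.15, 16.60 and 18.54 with LOXL1 siRNA. RAB3B, the most abundant of the exocytic RAB3 genes here, stood at 25.48, 23.63 and 24.64, then 23.81, 24.65 and 23.35, then 27.74, 26.75 and 24.71 FPKM in the same order. For both genes every LOX siRNA library was below every LOXL1 siRNA library, and both groups overlapped with the controls. Between the siRNAs RAB8B differed by -0.15 ± 0.055 (limma, adjusted p = 0.276) and RAB3B by -0.13 ± 0.048 (adjusted p = 0.272). With the trends on transcript length and GC removed the RAB3B difference was -0.06. RAB13 and RAB10, which serve transport to the plasma membrane, had differences within 0.09 of 0 in all 3 comparisons. RAB27A, which acts in exosome and lysosome release, stood at 12.8 to 14.8 FPKM with differences of 0.04 and -0.02 from control.

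Early endosomal genes were all 8 above the filter. At an unadjusted p of 0.05 none passed with LOX siRNA against control (all genes 6.93%). With LOXL1 siRNA against control 2 were higher (all genes 3.82%) and 1 lower (all genes 6.41%). Between the siRNAs 1 was higher with LOX siRNA (all genes 8.25%). RAB24, which acts in autophagy, was measured at 18.73, 20.08 and 18.47 FPKM in the controls, 18.03, 18.68 and 18.42 with LOX siRNA and 15.59, 17.46 and 16.70 with LOXL1 siRNA. The LOXL1 siRNA libraries were below every other library. The difference from control was -0.19 ± 0.049 with LOXL1 siRNA (limma, unadjusted p = 0.00172, adjusted p = 0.197) and -0.05 ± 0.049 with LOX siRNA (adjusted p = 0.853), and the siRNAs differed by 0.14 ± 0.049 (adjusted p = 0.265). The gene lies at chr5:177301190-177303744 on the minus strand, and 74.1% of its 50-base words also occur in annotated transcripts of the adjoining gene MXD3. Those transcripts are of GENCODE v29. In the deposited table MXD3 lies at chr5:177305500-177312291 and does not overlap RAB24. MXD3 stood at 15.0 to 16.2 FPKM in the controls and at 12.56, 13.08 and 16.09 with LOXL1 siRNA. Its difference from control was -0.16 ± 0.075 (limma, adjusted p = 0.504). Whether reads of these genes were mixed was not tested, so the level of RAB24 is uncertain.

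RAB5A stood at 31.79, 30.54 and 33.77 FPKM in the controls, 33.56, 32.93 and 32.43 with LOX siRNA and 34.16, 35.02 and 35.22 with LOXL1 siRNA. RAB22A, which sorts cargo at early endosomes, stood at 16.76, 16.44 and 16.90, then 17.23, 17.82 and 18.44, then 18.04, 18.43 and 17.63 FPKM. For RAB5A the LOXL1 siRNA libraries were above every other library, and for RAB22A both siRNA groups were above all controls. The difference of RAB5A with LOXL1 siRNA was 0.12 ± 0.042 (limma, adjusted p = 0.357) and that of RAB22A 0.10 ± 0.041 (adjusted p = 0.413). The more abundant RAB5C and RAB5B had differences of 0.01 ± 0.040 and -0.06 ± 0.036 there. RAB31, which links early endosomes to the Golgi, stood at 28.1 to 32.8 FPKM with differences of 0.05 from control in both comparisons. RAB21, an integrin traffic gene, had 0.05 in both as well.

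Of 8 late endosomal genes tested, none had an unadjusted p under 0.05 with LOX siRNA against control (all genes 6.93%) or between the siRNAs (all genes 12.8%). With LOXL1 siRNA against control 1 did, and it was higher (all genes 3.82%). This was RAB12, which sends recycling cargo to degradation, at 64.09, 62.38 and 66.04 FPKM in the controls, 67.12, 68.18 and 67.98 with LOX siRNA and 66.93, 68.09 and 73.18 with LOXL1 siRNA. Both siRNA groups were above all controls and overlapped with each other. The difference was 0.08 ± 0.040 with LOX siRNA (limma, adjusted p = 0.706) and 0.11 ± 0.040 with LOXL1 siRNA (adjusted p = 0.363; 0.09 without control replicate 2 and 0.07 without LOXL1 siRNA replicate 3). RAB7A had 0.02 ± 0.036 and 0.04 ± 0.036, RAB32, known from lysosome-related organelles, 0.04 and -0.02, and RAB9B, a low-level gene of late endosome to Golgi transport, 0.11 ± 0.079 and 0.07 ± 0.079, the first being 0.07 without control replicate 2 or LOX siRNA replicate 3. RAB34 was higher in every LOX siRNA library than in every LOXL1 siRNA library, by 0.05 ± 0.035 (adjusted p = 0.551). It was 0.03 without LOXL1 siRNA replicate 1, and removing the length and GC trends gave -0.01.

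Of the 7 recycling genes tested, none had an unadjusted p under 0.05 in any comparison (all genes 6.93%, 10.2% and 12.8% per comparison). RAB11A, which runs slow recycling through the recycling endosome, stood at 20.17, 19.21 and 22.29 FPKM in the controls, 18.30, 19.88 and 19.83 with LOX siRNA and 20.96, 20.12 and 21.88 with LOXL1 siRNA. Every LOX siRNA library was below every LOXL1 siRNA library (-0.11 ± 0.056; limma, adjusted p = 0.423), while both groups overlapped with the controls. RAB14, of Golgi to endosome traffic, had 0.04 and 0.06 ± 0.049 against control, the second being 0.02 without control replicate 2. RAB4A, of fast recycling, had 0.09 ± 0.073 with LOX siRNA, and 0.01 without control replicate 2. RAB35, which returns cargo quickly to the plasma membrane, had -0.04 and -0.05, and RAB11B -0.06 and -0.02. RAB4B shares all of its 50-base words with other annotated genes, 88.4% with the read-through gene MIA-RAB4B.

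The cilium genes were near each other in level. RAB23, a negative regulator of hedgehog signalling, stood at 17.7 to 19.4 FPKM with differences of 0.03 and -0.02 from control. RAB28, of ciliary traffic, stood at 16.25, 14.10 and 16.68 in the controls, 14.46, 14.94 and 13.21 with LOX siRNA and 16.33, 14.83 and 15.43 with LOXL1 siRNA. These groups overlapped (LOX siRNA against control -0.13 ± 0.065; limma, adjusted p = 0.706). Leaving out control replicate 2 gave -0.20, and leaving out LOX siRNA replicate 3 gave -0.08.

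RAB40C, whose SOCS box makes it an adaptor of a ubiquitin ligase, had the smallest unadjusted p of any RAB gene in the LOX siRNA comparison. It lies at chr16:589357-629273 on the plus strand and was measured at 7.86, 8.41 and 7.65 FPKM in the controls, 6.78, 6.56 and 6.91 with LOX siRNA and 7.02, 7.25 and 7.33 with LOXL1 siRNA. The groups did not overlap in any comparison: the controls were highest, the LOXL1 siRNA libraries between and the LOX siRNA libraries lowest. The difference from control was -0.21 ± 0.051 with LOX siRNA (limma, unadjusted p = 0.00119, adjusted p = 0.503) and -0.13 ± 0.051 with LOXL1 siRNA (adjusted p = 0.412). Between the siRNAs it was -0.08 ± 0.051 (adjusted p = 0.536). Without control replicate 2 the first was -0.18. Only 0.225% of its 50-base words occur in other genes.

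RAB42, a little studied gene at chr1:28592200-28594591 on the plus strand, had the smallest unadjusted p in the LOXL1 siRNA comparison. It was measured at 2.14, 1.82 and 1.99 FPKM in the controls, 1.99, 2.42 and 2.49 with LOX siRNA and 2.40, 3.04 and 2.97 with LOXL1 siRNA. The LOXL1 siRNA libraries were above all controls, and the LOX siRNA libraries overlapped with both. The difference was 0.35 ± 0.087 with LOXL1 siRNA (limma, unadjusted p = 0.00153, adjusted p = 0.188) and 0.14 ± 0.087 with LOX siRNA (adjusted p = 0.743). Of its 50-base words 12.9% occur in the pseudogene RAB42P1. RAB40B stood at 4.39, 4.62 and 4.55 FPKM in the controls, 4.54, 4.91 and 4.85 with LOX siRNA and 4.31, 4.26 and 3.88 with LOXL1 siRNA. Its LOXL1 siRNA libraries were below all others (LOX siRNA against LOXL1 siRNA 0.16 ± 0.058; limma, adjusted p = 0.272). RAB40A, at 1.05 FPKM on average, had differences of -0.01 ± 0.11 and -0.02 ± 0.11 from control, and 40.3% of its 50-base words occur in other genes.

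**Figure D4:**
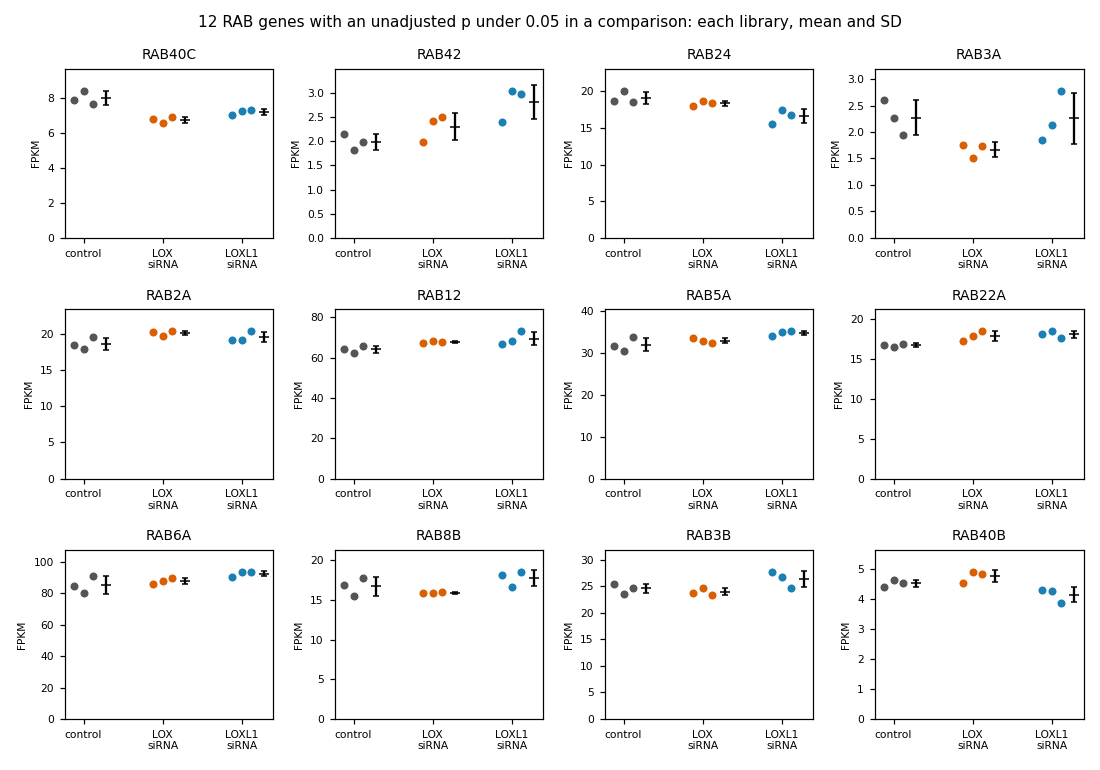
FPKM in each of 9 libraries (points) with mean and SD per group, for 12 RAB genes with an unadjusted p under 0.05 in a comparison. Vertical axes start at 0. RAB8A, RAB43 and RAB26 also had such a p and are not drawn. RAB40C runs from 7.65 to 8.41 in the controls to 6.56 to 6.91 with LOX siRNA, RAB42 from 1.82 to 2.14 to 2.40 to 3.04 with LOXL1 siRNA, and none of the 12 passed an adjusted p of 0.05.

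Many paralogue families were carried largely by 1 gene, and most shares were close between groups. Other families were more evenly split. By group mean RAB2A made up 55.6 to 56.9% of RAB2, RAB4B 65.5 to 66.2% of RAB4 and RAB39B 57.3 to 64.2% of RAB39. RAB1B made up 83.9% ± 1.63 of the RAB1 FPKM in the controls, 83.7% ± 0.331 with LOX siRNA and 83.8% ± 0.573 with LOXL1 siRNA (SD, n = 3). RAB5C made up 66.1% of RAB5 in every group, RAB6A 97.2% to 97.6% of RAB6 and RAB7A nearly all of RAB7. RAB11B made up 80.5% ± 2.52 of RAB11 in the controls, with 83.2% in replicate 2, and 80.8% ± 0.885 and 80.0% ± 0.405 in the siRNA groups. RAB8A made up 74.5% ± 2.37 of RAB8 in the controls, 74.6% ± 0.765 with LOX siRNA and 71.6% ± 1.16 with LOXL1 siRNA, and the controls overlapped with the LOXL1 siRNA libraries. RAB40C made up 58.1, 60.0 and 58.4% of RAB40 in the controls, 53.8, 52.6 and 54.7% with LOX siRNA and 57.1, 58.7 and 58.7% with LOXL1 siRNA. Its share was lower in every LOX siRNA library than in every other library, and RAB40B took 36.0 to 39.4% there against 32.4 to 34.7% in the controls. These shares were not tested.

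**Figure D5:**
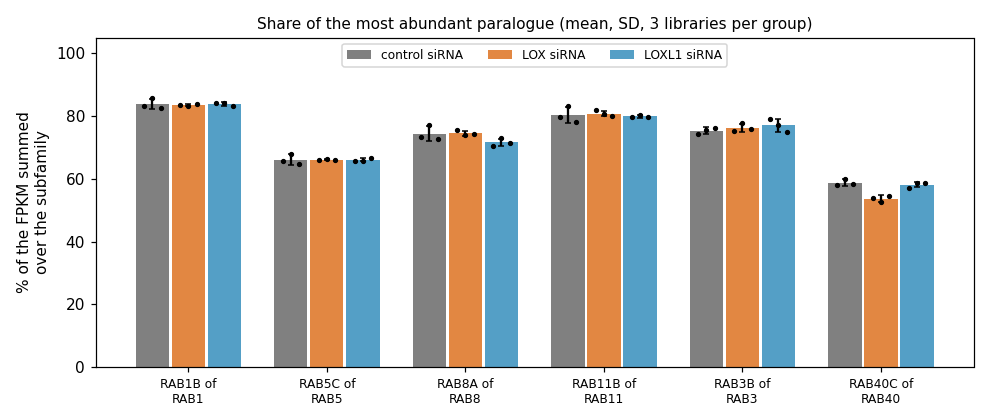
Share of the most abundant paralogue in the FPKM summed over its subfamily (%), for 6 subfamilies; bars are group means, error bars SD and points the 3 libraries. RAB1B holds 82.7 to 85.7% of RAB1 in every library, and RAB40C 52.6 to 54.7% of RAB40 with LOX siRNA against 58.1 to 60.0% in the controls.

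No partner of the RAB genes passed the threshold either. Of 149 listed regulators and effectors, 135 were tested, and none passed the adjusted threshold in any comparison. At an unadjusted p of 0.05, 7 (5.19%, all genes 6.93%) passed with LOX siRNA and 9 (6.67%, all genes 10.2%) with LOXL1 siRNA against control, and 18 (13.3%, all genes 12.8%) between the siRNAs. TRAPPC4, a subunit of the TRAPP complexes that activate RAB1 and RAB11, came closest. It was measured at 22.48, 23.88 and 23.23 FPKM in the controls, 24.06, 24.57 and 25.16 with LOX siRNA and 20.97, 21.60 and 21.56 with LOXL1 siRNA. The LOX siRNA libraries were above all controls and the LOXL1 siRNA libraries below all of them. Between the siRNAs the difference was 0.19 ± 0.040 (limma, adjusted p = 0.0799). Over the 18 alternatives the difference ran from 0.16 to 0.21. The adjusted p from limma ran from 0.0359, without control replicate 2, to 0.280. That library is in neither compared group and enters this comparison only through the shared estimate of spread.

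Among the other GEF genes, RGP1, part of an exchange factor for RAB6, had -0.20 ± 0.067 with LOX siRNA against control (limma, adjusted p = 0.644), and -0.12 without control replicate 2. CCZ1B, whose near-identical copy CCZ1 makes its level uncertain and which belongs to the exchange factor of RAB7, had -0.19 ± 0.073 (adjusted p = 0.687). CCZ1 went the other way in the same comparison, with 0.08 ± 0.056 (limma, adjusted p = 0.773). Whether reads were split between the copies was not tested. Of 34 GAP genes tested, SGSM2 stood at 14.94, 15.44 and 14.55 FPKM in the controls and 13.69, 13.03 and 13.51 with LOXL1 siRNA, a difference of -0.15 ± 0.043 (adjusted p = 0.259) with no overlap; removing the length and GC trends gave -0.08. GRTP1 and TBC1D10A, which carry the TBC domain of GAPs, had 0.36 ± 0.12 and 0.15 ± 0.054 between the siRNAs (adjusted p = 0.232 and 0.275); the second was 0.09 with the length and GC trends removed. Of 42 effectors, INPP5B, a phosphoinositide phosphatase, had -0.18 ± 0.056, MICALL2, an effector of RAB8 and RAB13, -0.22 ± 0.072 and RAB11FIP2, which binds RAB11, 0.20 ± 0.073 with LOXL1 siRNA against control (adjusted p = 0.289, 0.296 and 0.379).

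The prenylation and GDI genes were all 10 tested, with a summed level of 423 ± 7.43 FPKM in the controls, 431 ± 4.18 with LOX siRNA and 415 ± 9.62 with LOXL1 siRNA. GDI2, which extracts RAB proteins from membranes, averaged 76.4 FPKM. RABAC1, a RAB-binding protein of the Golgi, stood at 62.05, 71.00 and 64.98 FPKM in the controls, 71.95, 68.69 and 69.14 with LOX siRNA and 61.12, 60.30 and 68.14 with LOXL1 siRNA. The LOX siRNA libraries were above all LOXL1 siRNA libraries (0.15 ± 0.055; limma, adjusted p = 0.293) and overlapped with the controls. RABGGTA, a subunit of the transferase that attaches the lipid, had 0.17 ± 0.081 and PRAF2 0.11 ± 0.048 between the siRNAs (adjusted p = 0.393 and 0.379). The PRAF2 difference was 0.05 without LOX siRNA replicate 3. With the length and GC trends removed the differences of PRAF2 and RABAC1 were 0.04 and 0.07. In these libraries fewer cells of a kind and less RNA per cell cannot be told apart.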

How the data were processed

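RNA of 9 LX-2 libraries was sequenced on a BGISEQ-500, per the labels' protocols. The authors deposited 1 table of FPKM values per gene and library; TopHat2 2.0.10 and hg19 are named in the submitters' processing notes, but 56 of 62 RAB gene starts in the table lie within 5000 bases of GRCh38.p14, so its coordinates are read as GRCh38. No source used here states strandedness, the counting or the filters. Genes with an FPKM of at least 1 in at least 3 libraries (11808) were tested as log2(FPKM + 1) in 1 fit over the 3 groups with limma 3.58.1 (R 4.3.3, empirical Bayes with trend), Benjamini-Hochberg adjusted over all genes at 0.05; the pseudocount of 1 understates differences of low genes. The script was checked on simulated data. Python 3.11.15, pandas 2.3.3 and scipy 1.17.1 did the rest. Coding ends and 50-base words came from GENCODE v29 transcripts, and the words were matched on either strand. Amino-acid sequences were not used here, and 1 partner gene and 1 coding end are not reported here. RPH3A of the partner list was not analysed here.

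The members, role classes and partner lists were chosen with earlier results of these data known. Named were LOX and LOXL1, members past the threshold and members under the filter. Per role class the rule added the 4 highest tested members and the 3 with the smallest unadjusted p in any comparison. Per partner class it added genes past the threshold and the 3 with the smallest unadjusted p. RAB18, RAB21, RAB26, RAB27A, RAB39A, RAB39B, RAB4B and GDI2 fall outside it and were named after their values were seen. RAB20, named for its coding end, and MXD3, ISY1-RAB43 and CCZ1, named for shared sequence, also fall outside it. Alternatives were other scalings, pseudocounts and filters, no trend, the compared groups alone, a replicate block, length and GC correction, and leaving out each library.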

Additional observations from a re-analysis of the deposited data

How the results depend on the processing

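No RAB gene passed the adjusted threshold under any of 18 alternatives per comparison, and for the partners this held except that TRAPPC4 passed between the siRNAs without control replicate 2 (adjusted p = 0.0359), so that count ran from 0 to 1 when libraries were left out. LOXL1 lost its call without a filter on low values (adjusted p = 0.0632; log2 difference -0.78). The number of RAB genes past an unadjusted p of 0.05 moved: with LOX siRNA against control from 5 to 2 at a mean FPKM of 5 or more and to 8 with the length and GC trends removed, and between the siRNAs from 6 to 3 at a mean FPKM of 5 or more and to 10 with the compared groups alone. When 1 library was left out these counts ran from 2 to 6 with LOX siRNA (2 without control replicate 1), from 7 to 13 with LOXL1 siRNA and from 2 to 9 between the siRNAs (3 without LOXL1 siRNA replicate 1, 2 without its replicate 3). The median log2 difference of the RAB genes then ran from -0.0080 to 0.017, from -0.010 to 0.025 (the highest without LOXL1 siRNA replicate 2) and from -0.019 to 0.016. RAB34 between the siRNAs reversed from 0.05 to -0.01 with the length and GC trends removed (adjusted p = 0.900). The cause of these shifts was not tested, except that a higher FPKM minimum leaves fewer genes. Members averaging under 5 FPKM, among them RAB9B, RAB42, RAB40B, RAB43, RAB3A and RAB26, then have no value.

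Samples of the same replicate number did not deviate together (correlations of -0.068 to 0.025), so the numbers are not read as pairs. With the replicate number as a block, 5, 9 and 7 RAB genes passed an unadjusted p of 0.05 and none the adjusted threshold. FPKM without counts leaves the depth unknown, so no counting interval could be given, and 3 libraries per group limit what can be told apart.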

Other observations

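In the 250 bases before the annotated start, taken from the RefSeq GRCh38.p14 promoters of 49 matched RAB genes, GGGCGG on either strand stood in 38 (77.6%), against 68.7% of the promoters of all tested genes and 42.3% of 27305 promoters. The E-box CACGTG stood in 5 (10.2%), against 9.02% and 6.49%, and the TATA box letters TATAAA in 3 (6.12%), against 5.07% and 11.1%. CCAAT stood in 13 (26.5%), against 35.5% and 33.0%, and CAGACA in 5 (10.2%), against 9.75% and 13.6%. The median GC content of these windows was 64.8%, against 65.2% for the tested genes. A match of letters is a description of the window and not a binding site.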
